A study of Homo sapiens with 6 samples.

Results

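The genes of translation initiation, elongation and termination factors were read in RKO cells, a human colorectal cancer line, after siRNA transfection against ANP32B. Members were the rows whose gene name began with EIF or EEF followed by a digit and further capitals or digits, or was ETF1, whose description did not call them a pseudogene, and whose mean over the 6 samples was at least 1 FPKM (fragments per kilobase of gene length, scaled to the library total). Of 61204 rows, 212 carried such a name, 141 of these were pseudogenes and 7 lay below 1 FPKM, which left 64 members among the 13945 genes tested. Just inside the limit were EEF1AKMT4 with a mean of 1.82 FPKM and EIF5AL1 with 3.95 FPKM, and just outside were EIF4EBP3 with 0.744 FPKM and EIF2S3B with 0.603 FPKM.

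The knockdown cells were RKO transfected with an siRNA named siANP32B (3 samples), and the controls were RKO transfected with siCtrl (3 samples). Both groups received siRNA with the same lipid reagent, and all samples carry the same cell line background. The sources do not say which of the ANP32B siRNA sequences was used for sequencing, nor that the samples of a group were separate cultures, so the p-values rest on the spread of 3 and 3 libraries, a spread that may be only technical. The libraries are bulk RNA: a change in every cell and a change in a share of the cells cannot be told apart, and a level is relative to all other transcripts of its library.

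Translation begins when eIF2 brings the initiator tRNA to the small ribosomal subunit, which the large scaffold eIF3 holds ready for the mRNA. The mRNA is delivered by eIF4F, made of the cap-binding protein eIF4E, the scaffold eIF4G and the helicase eIF4A; eIF5B then joins the large subunit. During elongation eEF1A delivers aminoacyl-tRNAs and eEF2 moves the ribosome along the mRNA, until eRF1, the product of ETF1, reads a stop codon.

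ANP32B itself read 72.5, 53.9 and 75.3 FPKM in siANP32B cells, against 429, 466 and 452 FPKM in siCtrl cells, so the labelled knockdown was seen in every library. The libraries held 14304093 to 18987041 fragments, and each member rested on at least 11 fragments in each sample. Of 8 colorectal and epithelial markers, KRT8, KRT18, EPCAM and CDX2 were above 1 FPKM, KRT19 was listed at 0 and CDH1, VIL1 and LGR5 were near 0. The summed level of these markers was 81.3 to 85.2 FPKM in siANP32B samples and 77.8 to 86.0 FPKM in siCtrl samples. Of 10 markers of other cell types 4 were at 0 and 1, COL1A1, exceeded 1 FPKM, and their sum was 1.56 to 2.63 FPKM in siANP32B samples and 3.68 to 4.94 FPKM in siCtrl samples. Their part in the results was not tested. In siCtrl replicates 2 and 3, 11 genes with at least 20 FPKM in siCtrl replicate 1 stood below 50% of that value, FBL and EBNA1BP2 among them, and none of the 11 was a member. Over all genes, limma on log2(FPKM + 1) called 2031 higher and 3437 lower in siANP32B cells at a Benjamini-Hochberg adjusted p under 0.05, and 2690 higher and 2560 lower after median-of-ratios scaling, which moved the median log2 fold change of all genes to 0.0011, against -0.06 without it.

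Among the translation factors rises outnumbered falls. In the limma test 30 of the 64 members rose (46.9%), 11 fell (17.2%) and 23 were not called, beside 14.6% of all genes tested higher and 24.6% lower. The median log2 fold change of the members was 0.16, against -0.06 over all genes. For 32 members every siANP32B sample lay above every siCtrl sample and for 15 all lay below, where 19.3% and 31.8% of all genes tested did so. Members are strongly expressed genes, and among the 1746 genes at or above their median level 34.9% were called higher and 27.8% lower. Log2 fold changes below carry their standard errors, and adjusted p-values come from limma. Changes were small in size: 6 members differed by 1.5-fold or more in mean FPKM. After median-of-ratios scaling the members counted 34 higher and 7 lower, as EIF4E3, EIF4G2, EIF5 and EIF1AD were no longer called.

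**Figure D1:**
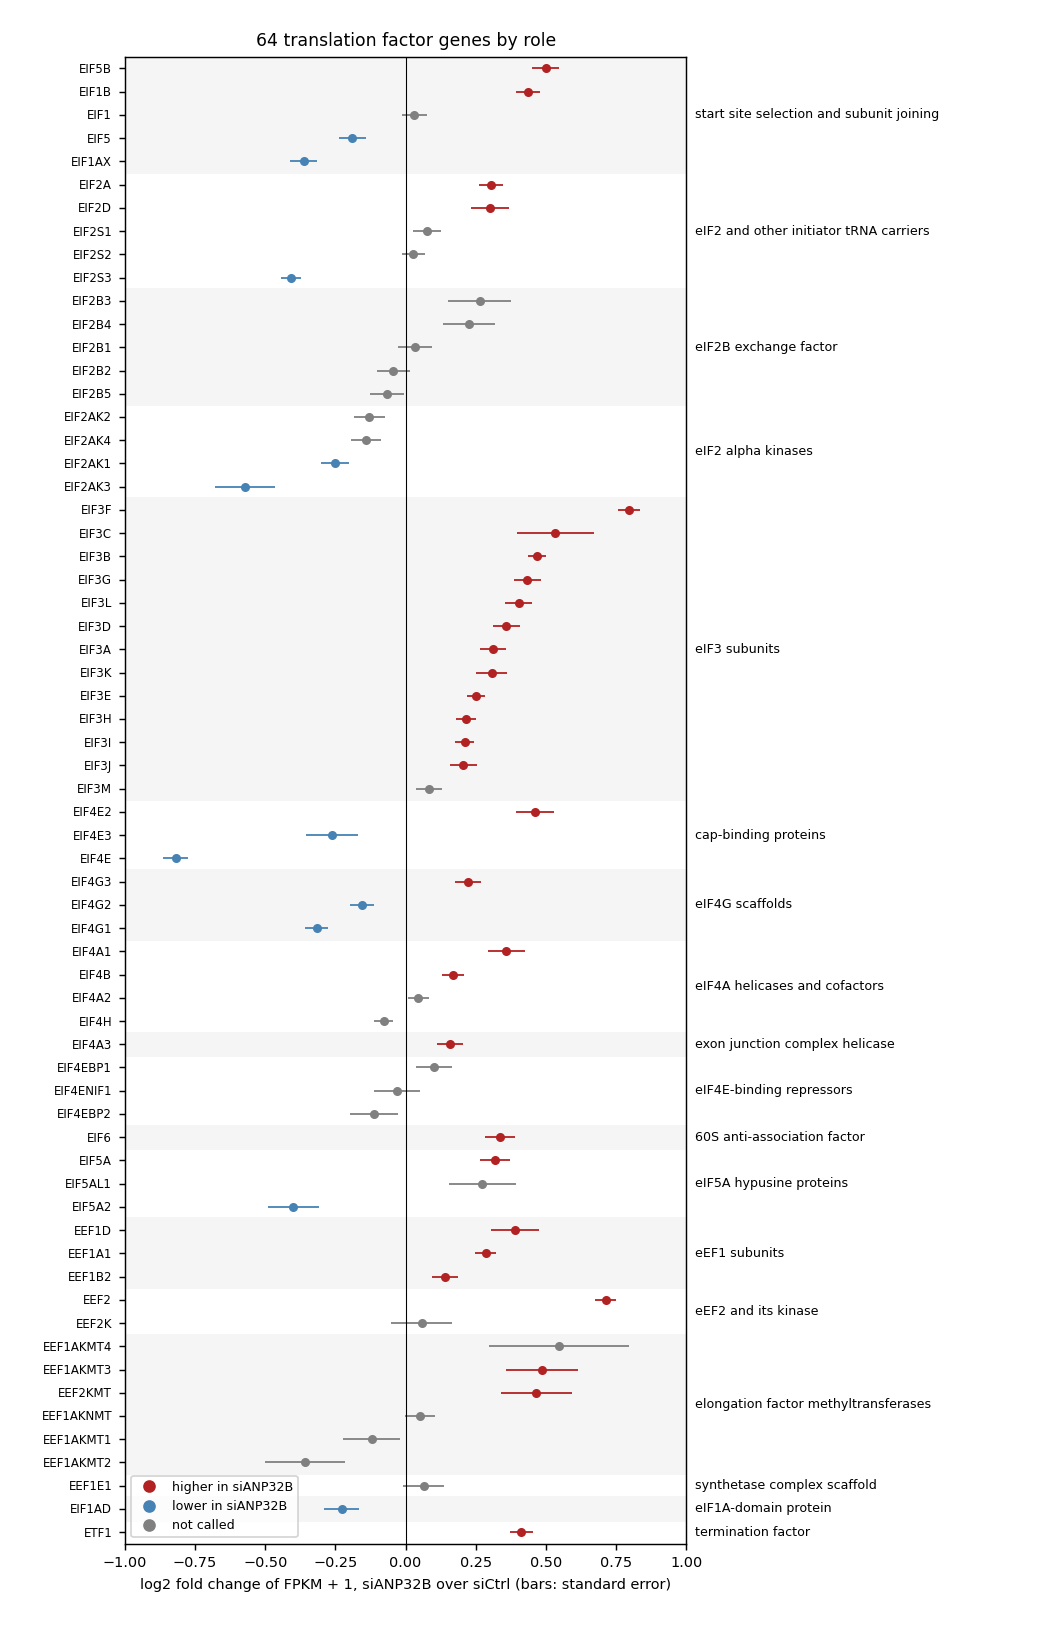
Log2 fold change of FPKM + 1 (siANP32B over siCtrl, points, with the standard error from limma as bars) of the 64 members, grouped by role and coloured by call. The eIF3 block lies to the right of 0 for all 13 genes, while EIF4E, at -0.82, is the point farthest to the left.

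The eIF3 scaffold was the largest block: 12 of its 13 subunit genes rose and EIF3M was not called, beside 14.6% of all genes tested called higher. Among genes at or above the median level of the members 34.9% were called higher. The 13 eIF3 genes had a median log2 fold change of 0.31. Their summed level was 3609, 3602 and 3582 FPKM in siANP32B cells, against 2879, 2998 and 2910 FPKM in siCtrl cells. The 2 sets of sums did not overlap (two-sided, exact permutation p = 0.10, which 3 against 3 cannot go below). For 12 of the 13 subunits every siANP32B sample already lay above every siCtrl sample, so this p was fixed and adds nothing. The subunit with the strongest rise was EIF3F, a subunit with an MPN domain. It read 111, 112 and 114 FPKM in siANP32B cells, against 64.6, 64.7 and 63.7 FPKM in siCtrl cells. All siANP32B samples lay far above all siCtrl samples, and the samples of each group were within a few FPKM of each other (1.75-fold, log2 fold change 0.80 ± 0.04, adjusted p = 2.51e-06). EIF3B, a core scaffold subunit with an RNA recognition motif, read 265, 267 and 268 FPKM in siANP32B cells, against 190.5, 192 and 195 FPKM in siCtrl cells. Its groups were again clearly apart (1.39-fold, log2 fold change 0.47 ± 0.03, adjusted p = 1.39e-05).

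The best expressed subunit, EIF3E, read 1000.3, 988 and 967 FPKM in siANP32B cells, against 821, 839 and 824 FPKM in siCtrl cells. Its rise was smaller in proportion, 1.19-fold (log2 fold change 0.25 ± 0.03, adjusted p = 0.000342), though the groups did not overlap. EIF3C, another core subunit, had the lowest listed level and read 8.72, 10.9 and 8.95 FPKM in siANP32B cells, against 5.65, 5.58 and 7.73 FPKM in siCtrl cells. In each group 1 sample stood above the others, and the groups still did not overlap (log2 fold change 0.53 ± 0.14, adjusted p = 0.0134). Without siANP32B replicate 2 the EIF3C call was lost, at a log2 fold change of 0.44 and an adjusted p of 0.0519. EIF3CL, its near-identical copy, lay below the limit at 0.483 to 0.738 FPKM in siANP32B samples and 0.164 to 0.618 FPKM in siCtrl samples. How reads were split between the copies is not known here, so the level of EIF3C is uncertain. The other called subunits, EIF3A, EIF3D, EIF3G, EIF3H, EIF3I, EIF3J, EIF3K and EIF3L, had log2 fold changes from 0.21 for EIF3J to 0.43 for EIF3G. EIF3M averaged 122 ± 1.40 FPKM in siANP32B cells and 115 ± 5.89 FPKM in siCtrl cells (SD, n = 3 each, as for all means given) and had a log2 fold change of 0.08 (limma adjusted p = 0.176), which became 0.13 (adjusted p = 0.0474) without siCtrl replicate 2. After median-of-ratios scaling EIF3M was called higher (0.15, limma adjusted p = 0.0421).

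**Figure D2:**
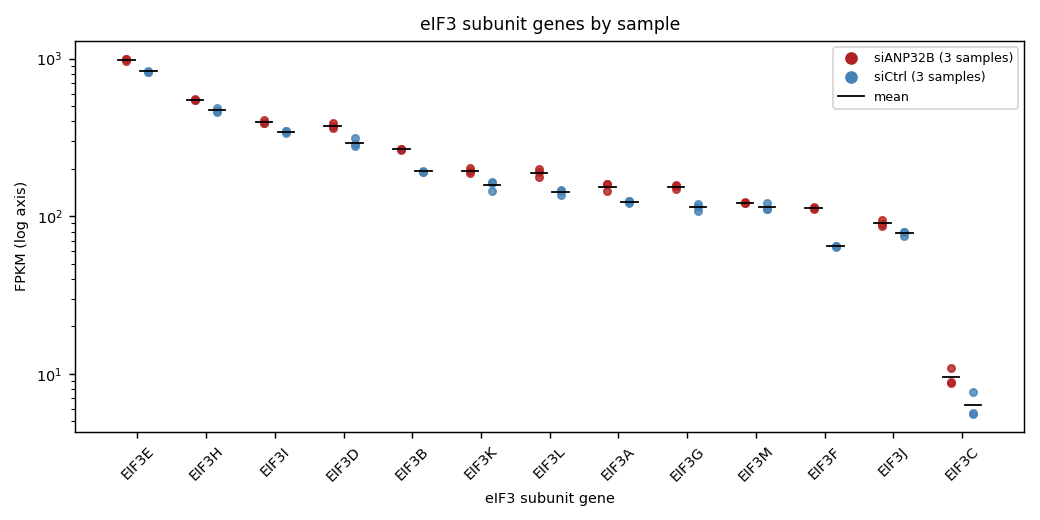
FPKM on a log axis of the 13 eIF3 subunit genes in the 3 siANP32B samples (red, left of each pair) and the 3 siCtrl samples (blue, right), with group means as black lines and genes ordered by mean level. The groups overlap for EIF3M alone, and the gap is widest for EIF3F.

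The promoter of EIF3F is shown because this gene had the strongest rise of all members. In the RefSeq window on GRCh38.p14 the bases before its start lie at chr11:7987087-7987336 on the plus strand, and the capitals mark CACGTG, the E-box bound by MYC and related factors.
EIF3F: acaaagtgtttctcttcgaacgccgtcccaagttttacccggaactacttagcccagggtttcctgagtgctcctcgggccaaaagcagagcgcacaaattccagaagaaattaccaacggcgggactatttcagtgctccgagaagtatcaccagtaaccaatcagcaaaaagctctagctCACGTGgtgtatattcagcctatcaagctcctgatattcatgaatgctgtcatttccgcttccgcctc
CACGTG reads the same on both strands. It occurred in the 250 bases before a start of 13 of the 51 members matched to RefSeq windows (25.5%) and of 11.4% of the 9411 tested genes matched. Counted by window, it occurred in 13 of 68 member windows (19.1%) and in 6.34% of all 35116 windows. Of those 13 members 5 rose and 3 fell, with a median log2 fold change of 0.16, and of the 38 without it 17 rose and 7 fell, with a median of 0.11. Among all tested genes matched, 21.0% of those with CACGTG were called higher and 24.6% lower, and of those without it 15.7% were higher and 28.4% lower. MYC mRNA averaged 601 ± 24.6 FPKM in siANP32B cells and 361 ± 7.08 FPKM in siCtrl cells and rose (log2 fold change 0.73 ± 0.04, adjusted p = 4.03e-06). A match of letters is a description of the window and its part in any change was not tested.

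The cap-binding proteins went in opposite directions. EIF4E, the cap-binding subunit of eIF4F, had the largest fall of all members and read 43.7, 42.0 and 43.2 FPKM in siANP32B cells, against 74.9, 76.9 and 78.0 FPKM in siCtrl cells. The siANP32B samples were tightly grouped and all lay far below the siCtrl samples (1.78-fold lower, log2 fold change -0.82 ± 0.04, adjusted p = 4.03e-06). EIF4E2, a cap-binding relative known for repressing the mRNAs it binds, read 45.1, 50.7 and 45.1 FPKM in siANP32B cells, against 34.3, 35.8 and 31.5 FPKM in siCtrl cells. Here every siANP32B sample was above every siCtrl sample (1.39-fold, log2 fold change 0.46 ± 0.07, adjusted p = 0.000743). The ratio of EIF4E to EIF4E2 FPKM was 0.968, 0.829 and 0.959 in siANP32B cells, against 2.19, 2.15 and 2.47 in siCtrl cells. EIF4E thus read slightly below EIF4E2 in every siANP32B sample and above it in every siCtrl sample. Each gene alone separated the groups, in opposite directions, so the ratio had to separate them as well. Its two-sided exact permutation p of 0.10, the lowest possible value, was fixed by this and adds nothing. EIF4E3, a more distant cap-binding relative, read 8.81, 10.5 and 9.46 FPKM in siANP32B cells, against 12.4, 11.7 and 10.9 FPKM in siCtrl cells. The groups came close without overlapping, and the fall was at the edge of the threshold (log2 fold change -0.26 ± 0.09, adjusted p = 0.0494). Leaving out siANP32B replicate 1, siANP32B replicate 3 or any single siCtrl replicate ended this call, with adjusted p from 0.0541 to 0.151.

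The promoter of EIF4E is shown as that of the member with the largest fall. Its RefSeq bases before the start lie at chr4:98929134-98929383 on the minus strand of GRCh38.p14, and the capitals again mark CACGTG.
EIF4E: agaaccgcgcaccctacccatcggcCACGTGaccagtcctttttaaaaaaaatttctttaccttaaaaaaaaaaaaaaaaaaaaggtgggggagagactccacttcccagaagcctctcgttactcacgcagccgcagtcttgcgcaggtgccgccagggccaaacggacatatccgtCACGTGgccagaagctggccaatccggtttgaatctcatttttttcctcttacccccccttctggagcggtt
CACGTG stands 2 times in this window, and its part in the fall of EIF4E was not tested.

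The repressors that bind eIF4E were not called. EIF4EBP1, which blocks eIF4E from joining eIF4G until mTOR phosphorylates it, read 274, 252 and 275 FPKM in siANP32B cells, against 226, 266 and 257 FPKM in siCtrl cells. The groups overlapped (log2 fold change 0.10 ± 0.06, adjusted p = 0.244). The ratio of EIF4E to EIF4EBP1 FPKM was 0.161 ± 0.00487 in siANP32B cells and 0.308 ± 0.0221 in siCtrl cells (SD, n = 3 each; two-sided, exact permutation p = 0.10, its lowest possible value). EIF4E alone separated the groups by more than EIF4EBP1 varied, so this p adds nothing to the fall of EIF4E. EIF4EBP2 averaged 9.31 ± 0.650 FPKM in siANP32B cells and 10.1 ± 0.315 FPKM in siCtrl cells, and EIF4ENIF1, the protein that carries eIF4E into the nucleus, averaged 13.3 ± 1.04 FPKM in siANP32B cells and 13.6 ± 0.638 FPKM in siCtrl cells.

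The eIF4G scaffolds were split as well. EIF4G1, the main scaffold between cap and ribosome, read 182, 176 and 188 FPKM in siANP32B cells, against 219.7, 233 and 227 FPKM in siCtrl cells. All siANP32B samples were below all siCtrl samples (log2 fold change -0.32 ± 0.04, adjusted p = 0.000372). EIF4G2, a relative that lacks the eIF4E-binding part, was the best expressed of the 3 and read 508, 496 and 517 FPKM in siANP32B cells, against 553, 597 and 546 FPKM in siCtrl cells. Its groups did not overlap and the fall was small (log2 fold change -0.16 ± 0.04, adjusted p = 0.0167). The call was lost under median-of-ratios scaling (-0.08, adjusted p = 0.211) and without siANP32B replicate 2 (adjusted p = 0.0577). EIF4G3, a close relative of EIF4G1, averaged 69.5 ± 1.48 FPKM in siANP32B cells and 59.5 ± 1.77 FPKM in siCtrl cells and rose (log2 fold change 0.22 ± 0.04, adjusted p = 0.00409). The ratio of EIF4G1 to EIF4G3 FPKM was 2.62 ± 0.0410 in siANP32B cells and 3.82 ± 0.203 in siCtrl cells (SD, n = 3 each).

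Of the helicase eIF4A and its cofactors, 2 of 4 rose and none fell, beside 46.9% of all members and 14.6% of all genes tested called higher. EIF4A1, a helicase that unwinds the mRNA leader, read 21.0, 20.1 and 20.1 FPKM in siANP32B cells, against 15.2, 16.5 and 15.4 FPKM in siCtrl cells. The groups did not overlap (log2 fold change 0.36 ± 0.07, adjusted p = 0.00242). In GENCODE 29, 48.6% of the EIF4A1 exon bases also belong to other genes of the same strand, mostly AC016876.2, so its level is uncertain. EIF4A2, its close relative, averaged 156 ± 2.43 FPKM in siANP32B cells and 151 ± 3.25 FPKM in siCtrl cells and was not called (0.04, adjusted p = 0.374). EIF4B, which stimulates the helicase, read 391, 392 and 394 FPKM in siANP32B cells, against 334, 361 and 352 FPKM in siCtrl cells. The siANP32B samples were nearly equal and above all siCtrl samples (log2 fold change 0.17 ± 0.04, adjusted p = 0.00722). EIF4H, a smaller cofactor, averaged 266 ± 4.64 FPKM in siANP32B cells and 281 ± 5.79 FPKM in siCtrl cells and was not called. EIF4A3, the related helicase of the exon junction complex, read 95.2, 90.7 and 88.5 FPKM in siANP32B cells, against 78.5, 83.3 and 83.8 FPKM in siCtrl cells. Every siANP32B sample was above every siCtrl sample (log2 fold change 0.16 ± 0.05, adjusted p = 0.0255), but the call was lost without siANP32B replicate 1, siANP32B replicate 2 or siCtrl replicate 1 (adjusted p from 0.0558 to 0.0860).

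**Figure D3:**
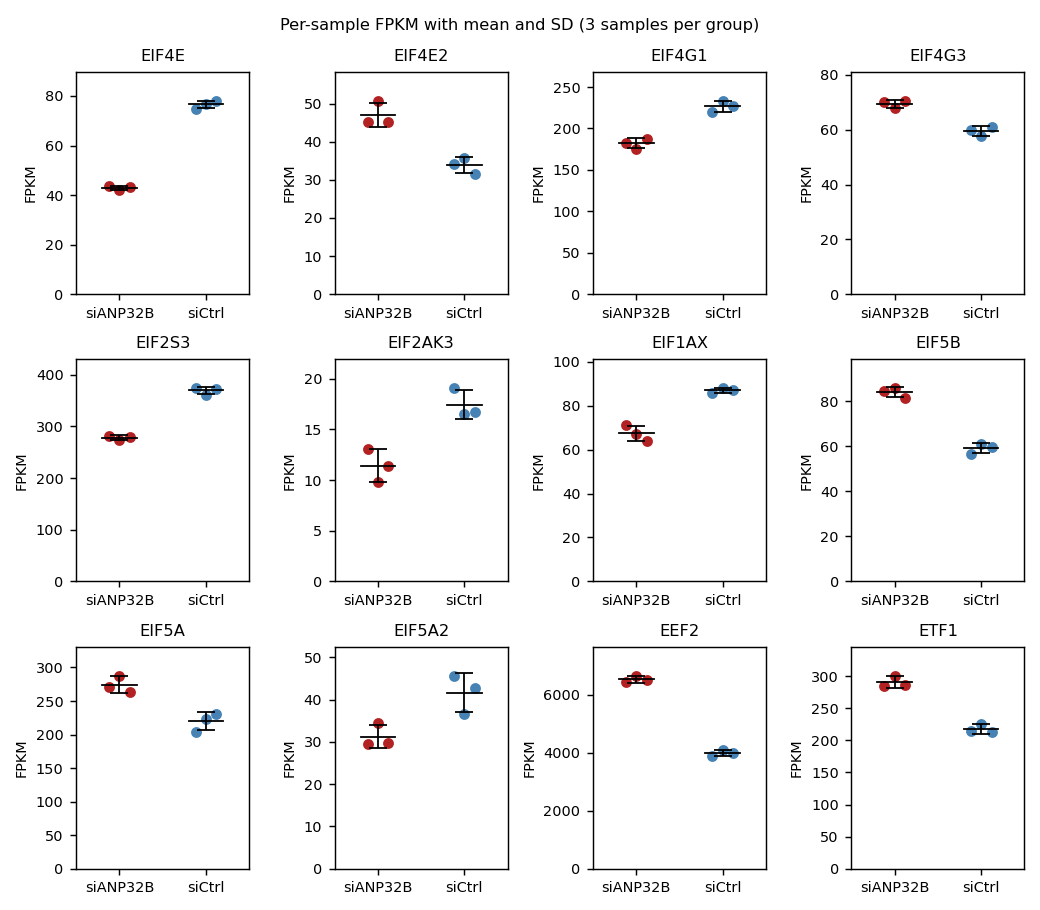
FPKM of 12 members in each sample (points; siANP32B red, left, and siCtrl blue, right), with the mean and SD of each group of 3 in black and each axis starting at 0. In all 12 panels the groups do not overlap; EIF4E, EIF4G1, EIF2S3, EIF2AK3, EIF1AX and EIF5A2 are lower and EIF4E2, EIF4G3, EIF5B, EIF5A, EEF2 and ETF1 higher in siANP32B cells.

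In eIF2, the carrier of the initiator tRNA, 1 of 3 subunits was called, beside 39.2% of all genes tested in either direction. EIF2S3, the GTP-binding gamma subunit, read 282, 273 and 279 FPKM in siANP32B cells, against 374, 361 and 373 FPKM in siCtrl cells. The siANP32B samples lay well below the siCtrl samples with little spread (1.33-fold lower, log2 fold change -0.41 ± 0.03, adjusted p = 3.39e-05). The alpha subunit gene EIF2S1 averaged 116 ± 4.12 FPKM in siANP32B cells and 109.9 ± 5.10 FPKM in siCtrl cells, and the beta subunit gene EIF2S2 read 109, 112 and 117 FPKM in siANP32B cells, against 109, 110.0 and 112 FPKM in siCtrl cells. Neither was called (0.08, adjusted p = 0.245, and 0.03, adjusted p = 0.647). After median-of-ratios scaling EIF2S1 was called higher (0.15, adjusted p = 0.0373), and EIF2S2 was not (0.10, adjusted p = 0.105). EIF2A and EIF2D, which can bring tRNA to the small subunit without eIF2, rose by a log2 fold change of 0.30 each. EIF2A averaged 121 ± 5.26 FPKM in siANP32B cells and 97.7 ± 1.49 FPKM in siCtrl cells, and EIF2D averaged 46.9 ± 2.56 FPKM in siANP32B cells and 37.9 ± 2.95 FPKM in siCtrl cells.

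The exchange factor eIF2B, which reloads eIF2 with GTP, had 0 of 5 subunits called by limma on FPKM, beside 39.2% of all genes tested. EIF2B3 and EIF2B4 had an unadjusted p under 0.05 in limma, and limma-voom on fragments recovered from the FPKM values called 1, EIF2B4 (higher). The best expressed, EIF2B2, read 35.9, 38.5 and 36.5 FPKM in siANP32B cells, against 36.9, 40.3 and 37.1 FPKM in siCtrl cells. These groups overlapped (log2 fold change -0.04 ± 0.06, adjusted p = 0.588). The other log2 fold changes ran from -0.07 for EIF2B5 to 0.26 for EIF2B3, and EIF2B3 and EIF2B4 were called higher after median-of-ratios scaling (adjusted p = 0.0385 and 0.0278).

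The 4 kinases that phosphorylate eIF2 alpha all had negative log2 fold changes, as did 8055 of the 13945 genes tested. Of the kinases, 2 were called lower, beside 24.6% of all genes tested. EIF2AK3, or PERK, the kinase of endoplasmic reticulum stress, read 13.0, 9.83 and 11.4 FPKM in siANP32B cells, against 19.1, 16.5 and 16.7 FPKM in siCtrl cells. Its groups did not overlap, and the siANP32B values spread more widely in proportion than those of the other called falls (log2 fold change -0.57 ± 0.11, adjusted p = 0.00255). EIF2AK1, the haem-regulated kinase, was the best expressed and read 67.1, 63.0 and 66.5 FPKM in siANP32B cells, against 77.2, 75.4 and 81.8 FPKM in siCtrl cells. The gap between the groups was clear but small (log2 fold change -0.25 ± 0.05, adjusted p = 0.00348). EIF2AK4, or GCN2, the kinase of amino acid starvation, averaged 46.4 ± 1.38 FPKM in siANP32B cells and 51.3 ± 2.37 FPKM in siCtrl cells (limma adjusted p = 0.0600, and 0.0431 without siCtrl replicate 2). EIF2AK2, or PKR, the kinase activated by double-stranded RNA, averaged 30.8 ± 0.880 FPKM in siANP32B cells and 33.8 ± 1.43 FPKM in siCtrl cells (limma adjusted p = 0.0963). After median-of-ratios scaling EIF2AK3 and EIF2AK1 were still called lower. There EIF2AK4 and EIF2AK2 had log2 fold changes of -0.07 and -0.06 (limma adjusted p = 0.286 and 0.406). ATF4, the factor whose translation eIF2 phosphorylation favours, averaged 417 ± 4.10 FPKM in siANP32B cells and 419 ± 8.26 FPKM in siCtrl cells at the mRNA level and was not called.

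Factors of start codon selection and subunit joining, 5 genes, split into 2 rises and 2 falls, beside 14.6% of all genes tested higher and 24.6% lower. EIF5B, the GTPase that joins the large subunit, read 84.5, 85.7 and 81.5 FPKM in siANP32B cells, against 56.6, 60.9 and 59.8 FPKM in siCtrl cells. All siANP32B samples stood above all siCtrl samples (log2 fold change 0.50 ± 0.05, adjusted p = 5.81e-05). EIF1B, a near relative of EIF1, averaged 160.0 ± 5.83 FPKM in siANP32B cells and 118 ± 2.78 FPKM in siCtrl cells and also rose (log2 fold change 0.44 ± 0.04, adjusted p = 6.9e-05). EIF1AX, which helps the small subunit scan and choose a start codon, read 71.0, 67.2 and 64.0 FPKM in siANP32B cells, against 85.9, 87.9 and 86.9 FPKM in siCtrl cells. All siANP32B samples were below all siCtrl samples (log2 fold change -0.36 ± 0.05, adjusted p = 0.000425). EIF5, the protein that triggers GTP hydrolysis by eIF2, averaged 171 ± 5.28 FPKM in siANP32B cells and 195 ± 10.8 FPKM in siCtrl cells and fell (log2 fold change -0.19 ± 0.05, adjusted p = 0.0127), a call not made after median-of-ratios scaling (adjusted p = 0.112). EIF1, the best expressed of the group and a guard of start codon choice, read 628, 626 and 617 FPKM in siANP32B cells, against 590.4, 654 and 587 FPKM in siCtrl cells. The sample siCtrl replicate 2 was above every siANP32B sample and the others below, and EIF1 was not called (log2 fold change 0.03 ± 0.05, adjusted p = 0.623).

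EIF6, which keeps the large subunit from joining too early, read 206, 211 and 201 FPKM in siANP32B cells, against 150.0, 168 and 172 FPKM in siCtrl cells. Every siANP32B sample was above every siCtrl sample (log2 fold change 0.34 ± 0.05, adjusted p = 0.00116). EIF1AD, a protein with an eIF1A-like domain, read 36.6, 38.3 and 38.9 FPKM in siANP32B cells, against 43.8, 41.9 and 48.2 FPKM in siCtrl cells. These groups did not overlap (log2 fold change -0.23 ± 0.06, adjusted p = 0.0175), but the call was lost without siANP32B replicate 1 (adjusted p = 0.0575) or siCtrl replicate 3 (adjusted p = 0.0613).

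The eIF5A proteins carry the modified lysine hypusine and help ribosomes through sequences that are hard to translate. EIF5A, the main form, read 271, 288 and 264 FPKM in siANP32B cells, against 205, 224 and 231 FPKM in siCtrl cells. The groups did not overlap (log2 fold change 0.32 ± 0.05, adjusted p = 0.00144). EIF5A2, the second gene, read 29.6, 34.5 and 29.7 FPKM in siANP32B cells, against 45.7, 36.5 and 42.7 FPKM in siCtrl cells. It fell, with the highest siANP32B sample close under the lowest siCtrl sample (log2 fold change -0.40 ± 0.09, adjusted p = 0.00746). The ratio of EIF5A to EIF5A2 FPKM was 9.17, 8.34 and 8.88 in siANP32B cells, against 4.48, 6.12 and 5.41 in siCtrl cells. EIF5AL1, a near-identical copy of EIF5A whose reads may come from either gene, averaged 4.42 ± 0.176 FPKM in siANP32B cells and 3.49 ± 0.301 FPKM in siCtrl cells and was not called (adjusted p = 0.0994).

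The 3 members with the highest levels were elongation factor genes, EEF1A1, EEF2 and EEF1B2, and all 3 rose. EEF1A1, which delivers aminoacyl-tRNAs, read 8203, 8207 and 8238 FPKM in siANP32B cells, against 6531, 6991 and 6706 FPKM in siCtrl cells. The siANP32B samples were almost equal and all above the siCtrl samples (1.22-fold, log2 fold change 0.29 ± 0.04, adjusted p = 0.000381). EEF2, the translocation factor, read 6443, 6661 and 6496 FPKM in siANP32B cells, against 3886, 4093 and 3987 FPKM in siCtrl cells. Its groups were much farther apart than the samples within them (1.64-fold, log2 fold change 0.71 ± 0.04, adjusted p = 3.05e-06). The ratio of EEF2 to EEF1A1 FPKM was 0.785, 0.812 and 0.788 in siANP32B cells, against 0.595, 0.585 and 0.595 in siCtrl cells (two-sided, exact permutation p = 0.10, its lowest possible value). EEF2 separated the groups by more than EEF1A1 varied over all samples, so this p adds nothing. EEF1D and EEF1B2, subunits of the complex that reloads eEF1A with GTP, both rose. EEF1D averaged 67.0 ± 7.96 FPKM in siANP32B cells and 50.8 ± 3.64 FPKM in siCtrl cells (log2 fold change 0.39 ± 0.09, adjusted p = 0.00627). EEF1B2 averaged 1055 ± 17.4 FPKM in siANP32B cells and 958 ± 57.6 FPKM in siCtrl cells (log2 fold change 0.14 ± 0.05, adjusted p = 0.0358), but leaving out any single siANP32B replicate, siCtrl replicate 1 or siCtrl replicate 3 ended its call, with adjusted p from 0.0597 to 0.108. EEF1G, the gamma subunit of the same complex, was listed at 0 in all samples; 99.9% of its exon bases in GENCODE 29 also belong to AP002990.1, itself at 0.339 to 0.679 FPKM.

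EEF2K, the kinase that switches eEF2 off, averaged 8.41 ± 0.936 FPKM in siANP32B cells and 8.04 ± 0.761 FPKM in siCtrl cells and was not called (limma adjusted p = 0.716). Of the methyltransferases that modify elongation factors, 2 of 6 rose, beside 46.9% of all members and 14.6% of all genes tested. EEF1AKMT3, which acts on eEF1A, read 7.24, 8.41 and 9.32 FPKM in siANP32B cells, against 6.65, 5.08 and 5.28 FPKM in siCtrl cells. EEF2KMT, which acts on eEF2, read 7.99, 8.77 and 10.7 FPKM in siANP32B cells, against 6.12, 7.20 and 5.71 FPKM in siCtrl cells. Both genes were low and their groups did not overlap (log2 fold change 0.48 ± 0.13, adjusted p = 0.0152, for EEF1AKMT3, and log2 fold change 0.46 ± 0.13, adjusted p = 0.0175, for EEF2KMT). EEF1AKMT3 lost its call without siANP32B replicate 3 (0.41, adjusted p = 0.0571) or siCtrl replicate 3 (0.44, adjusted p = 0.0503). EEF2KMT lost it without siANP32B replicate 3, siCtrl replicate 1 or siCtrl replicate 3 (adjusted p from 0.0506 to 0.0609). EEF1AKMT1, EEF1AKMT2 and EEF1AKMT4, which also act on eEF1A or are named for it, were not called, with log2 fold changes of -0.12, -0.36 and 0.55, and EEF1AKMT2 was called lower without siCtrl replicate 2 (-0.46, adjusted p = 0.0428). EEF1AKNMT, the best expressed methyltransferase of the group, read 36.0, 33.4 and 34.2 FPKM in siANP32B cells, against 33.5, 32.2 and 34.1 FPKM in siCtrl cells, with overlapping groups (log2 fold change 0.05 ± 0.05, adjusted p = 0.486). EEF1E1, a scaffold protein of the tRNA synthetase complex, read 15.3, 14.3 and 14.6 FPKM in siANP32B cells, against 15.1, 13.5 and 13.6 FPKM in siCtrl cells, also with overlapping groups (log2 fold change 0.06 ± 0.07, adjusted p = 0.536).

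ETF1 encodes eRF1, which recognises the stop codons and releases the finished protein. It read 284, 301 and 285 FPKM in siANP32B cells, against 215, 226 and 213 FPKM in siCtrl cells. All siANP32B samples were above all siCtrl samples (1.33-fold, log2 fold change 0.41 ± 0.04, adjusted p = 8.07e-05).

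Summed over the 64 members, the level was 24452, 24682 and 24530.2 FPKM in siANP32B cells, against 19154, 20283 and 19614 FPKM in siCtrl cells. The members took 3.44 ± 0.00921% of the FPKM sum in siANP32B cells and 2.84 ± 0.0601% in siCtrl cells (SD, n = 3 each). Most of this difference lay in EEF1A1 and EEF2: without them the sum was 9806 ± 8.51 FPKM in siANP32B cells and 8952 ± 233 FPKM in siCtrl cells. For each of these sums the exact two-sided permutation test gave p = 0.10, the smallest possible. EEF1A1 and EEF2 alone already separated the groups, so this p adds nothing for the sum over all members.

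Several members are known to have mRNAs with a 5′ terminal oligopyrimidine tract (TOP), a run of C and T letters that begins with C at the transcription start and ties translation to mTOR. Of 9 members or low relatives listed as TOP mRNAs from general knowledge, 8 could be tested and 8 rose (EEF1A1, EEF1B2, EEF1D, EEF2, EIF3E, EIF3F, EIF3H and EIF4B), with a median log2 fold change of 0.27. Higher calls were made for 46.9% of all members and 14.6% of all genes tested. Among genes at or above the median level of the members the share was 34.9%. The list was written with earlier results of these data known, so its count is a description. The RefSeq windows were then read at the annotated starts. The windows of 30 bases below, from GRCh38.p14, run from 15 bases before the start to 15 from it, with the pyrimidine run at the start in capitals. They lie at chr6:73521018-73521047 on the minus strand for EEF1A1, chr19:3985449-3985478 on the minus strand for EEF2, chr11:7987322-7987351 on the plus strand for EIF3F, chr12:53006441-53006470 on the plus strand for EIF4B and chrX:24054941-24054970 on the plus strand for EIF2S3, and EIF4E is given as a start without such a run, at chr4:98929119-98929148 on the minus strand.
EEF1A1: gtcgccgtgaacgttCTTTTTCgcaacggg
EEF2: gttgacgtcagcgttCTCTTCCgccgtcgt
EIF3F: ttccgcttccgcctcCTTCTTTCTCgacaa
EIF4B: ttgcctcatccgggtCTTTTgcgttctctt
EIF2S3: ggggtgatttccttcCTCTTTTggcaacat
EIF4E: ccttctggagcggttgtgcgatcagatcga
A start with C followed by at least 4 more pyrimidines was found for 12 of the 51 members matched (23.5%) and for 7.58% of the tested genes matched. Counted by window, it was found in 12 of 68 member windows (17.6%) and in 4.07% of all windows. Of the 12 members 9 rose, 1 fell (EIF2S3) and the other 2, EIF3M and EIF4A2, were not called, with a median log2 fold change of 0.29. Of the 39 members without such a start 13 rose and 9 fell, with a median of 0.06. Among the 713 tested genes with such a start 26.8% were called higher and 21.7% lower, with a median of -0.0047. Of the 8698 tested genes without it 15.4% were called higher and 28.4% lower, with a median of -0.075. Annotated starts need not be those used in RKO cells, and a match is a description of the letters.

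Set beside other genes of the translation machinery, the factors lay by their median between the ribosomal proteins and the tRNA synthetases. Of 80 cytosolic ribosomal protein genes 67 were called higher (83.8%) and 6 lower (7.5%), with a median log2 fold change of 0.30. Of 36 aminoacyl-tRNA synthetase genes, which charge tRNAs, 8 were called higher (22.2%) and 10 lower (27.8%), with a median of 0.02. The difference between these lists and the translation factors was not tested. Over all genes tested 14.6% were called higher and 24.6% lower. Among genes at or above the median level of the members the shares were 34.9% and 27.8%.

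**Figure D4:**
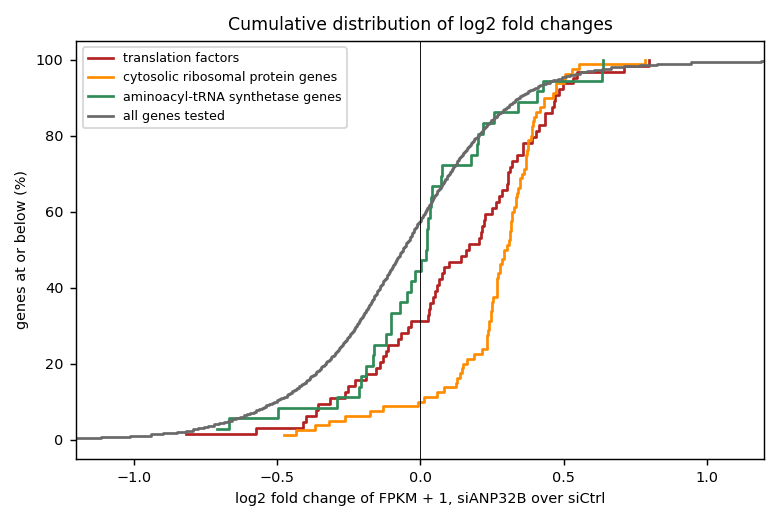
Share of genes (%) at or below each log2 fold change of FPKM + 1 (siANP32B over siCtrl) for the 64 translation factors, 80 ribosomal protein genes, 36 tRNA synthetase genes and all 13945 genes tested. The medians, where the curves cross 50%, are 0.16, 0.30, 0.02 and -0.06.

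Partners of the members that do not carry EIF or EEF names were read from lists written from general knowledge. Of 20 other initiation factors and cofactors 9 rose (45%) and 4 fell (20%), beside 14.6% of all genes tested higher and 24.6% lower. Among genes at or above the median level of the members the shares were 34.9% and 27.8%. PABPC4 and PABPC1, poly(A)-binding proteins that hold the mRNA tail to eIF4G, averaged 188 ± 13.2 FPKM in siANP32B cells and 128 ± 1.45 FPKM in siCtrl cells for PABPC4 and 3067 ± 107 FPKM in siANP32B cells and 2356 ± 78.7 FPKM in siCtrl cells for PABPC1, and both rose (log2 fold changes 0.55 and 0.38). PAIP2, which pulls poly(A)-binding protein off the tail, averaged 54.1 ± 5.70 FPKM in siANP32B cells and 82.2 ± 1.06 FPKM in siCtrl cells and fell (log2 fold change -0.60 ± 0.07, adjusted p = 0.000185). Of 21 other elongation, termination and recycling factors 7 rose (33.3%) and 1 fell (4.76%). Among the rises, DPH3, needed for the diphthamide residue of eEF2, averaged 20.7 ± 0.771 FPKM in siANP32B cells and 13.0 ± 1.19 FPKM in siCtrl cells, and GSPT1, or eRF3, the partner of eRF1, averaged 179.9 ± 6.29 FPKM in siANP32B cells and 148 ± 6.42 FPKM in siCtrl cells.

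Of 19 kinases and phosphatases that act on translation factors 3 were called higher (15.8%, beside 14.6% of all genes tested) and 7 lower (36.8%, beside 24.6%), and after median-of-ratios scaling 6 were called higher and 3 lower. Their median log2 fold change was -0.05, against -0.06 over all genes. PPP1R15B, which directs a phosphatase to eIF2 alpha, averaged 25.8 ± 1.20 FPKM in siANP32B cells and 44.9 ± 1.29 FPKM in siCtrl cells and fell (log2 fold change -0.78 ± 0.06, adjusted p = 1.49e-05). RPS6KB1, the S6 kinase downstream of mTOR, averaged 22.5 ± 1.70 FPKM in siANP32B cells and 34.7 ± 0.503 FPKM in siCtrl cells and fell (log2 fold change -0.61 ± 0.06, adjusted p = 0.000125). CSNK2A1, a subunit of casein kinase, averaged 193 ± 4.40 FPKM in siANP32B cells and 226 ± 3.15 FPKM in siCtrl cells and fell (log2 fold change -0.22 ± 0.04, adjusted p = 0.00126). The 3 rises were PPP1R15A, AKT1 and RPS6KB2 (log2 fold changes 0.21, 0.25 and 0.26). PPP1R15A averaged 786 ± 11.0 FPKM in siANP32B cells and 681 ± 45.1 FPKM in siCtrl cells (limma adjusted p = 0.00749). RPS6KB2 averaged 40.5 ± 3.10 FPKM in siANP32B cells and 33.8 ± 2.78 FPKM in siCtrl cells (limma adjusted p = 0.0266). Of 11 mitochondrial translation factors TUFM, which delivers tRNAs to mitochondrial ribosomes, was the sole call (log2 fold change 0.40 ± 0.03, adjusted p = 2.76e-05), and 5 were called higher after median-of-ratios scaling. Without that scaling 9.09% of these factors were called higher, beside 14.6% of all genes tested.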

How the data were processed

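RNA from RKO cells transfected with siANP32B (3 samples) or siCtrl (3 samples) was sequenced. The methods text names TRIzol and Illumina, and the sample labels name Tiangen and MGI kits. The authors deposited FPKM values, one table per sample. Per the submitters' processing notes GRCh38, RSEM, Bowtie2 and DESeq2 were used; versions, annotation, filters and strand count as not given in the sources used here. From the deposited numbers themselves came the unit, since for 13718 of 13718 genes above 0 in all samples and averaging 1 FPKM or more they were whole fragments over a gene length within 0.002. Library totals were 14304093 to 18987041 fragments. Replicates differed by 3.58 to 7.79 times the noise of sampling, as chi-square over degrees of freedom.

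The 13945 genes averaging 1 FPKM or more were fitted on log2(FPKM + 1) in limma (3.58.1, under R 4.3.3) with a mean-variance trend, no block and Benjamini-Hochberg adjustment over all genes tested (threshold 0.05). Fold changes on this scale understate those of low genes. Errors of log2 fold changes are standard errors, other errors are SD. Single values were compared by exact two-sided permutation over samples, where 3 against 3 cannot go below p = 0.10. The fit was tested on simulated data. Tables came from pandas 2.3.3, numpy 2.4.6 and scipy 1.17.1, and plots from matplotlib 3.10.9, under Python 3.11.15. Gene positions and exon overlaps come from GENCODE 29 and promoter sequences from RefSeq (GRCh38.p14). In GENCODE 29, 13 members share exon bases with another gene of the same strand, EIF4A1 and EIF3L (41.1%) most, so their levels are uncertain. As strand is not given, overlaps on the opposite strand may count too, and 24 members share no exon bases on either strand. Over both strands the share was 51.8% for EIF3L, 34.0% for EEF1D, 29.3% for EEF2KMT and 24.2% for EIF4E2, among others.

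Members and lists were chosen with earlier results of these data known. Values per sample are given for the 8 called members with the strongest rise and the 8 with the strongest fall, if averaging 5 FPKM or more, the highest member of each role group and the called member with the smallest p of each; up to 3 called genes are named for each other list. EIF2B3, EIF2B4, EIF4G3, EIF1B, EEF1D and the other members given as means were named by role. Also named, beyond the limit of 3 called genes, were the 3 rises among the kinases and phosphatases. Alternatives were a pseudocount of 0.1, no filter, a filter of 5 FPKM, median-of-ratios and upper-quartile scaling, each sample left out, a replicate block, siCtrl replicate 1 as the only control, and no variance trend. Limma-voom on recovered fragments was added after seeing the data.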

Additional observations from a re-analysis of the deposited data

How the results depend on the processing

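Of the 41 called members 28 kept their call under all 15 alternatives, 13 lost it under at least 1, 8 of them when a single library was left out, and none changed sign. The members called higher ranged from 27 to 31 and those called lower from 9 to 12 with a sample left out, the eIF3 subunits called higher from 11 to 13, and all genes from 1660 to 1759 higher and from 2752 to 3050 lower. Members called lower fell to 7 with median-of-ratios scaling, 7 with upper-quartile scaling and 6 where siCtrl replicate 1 alone served as control, a fit in which all genes gave 1247 higher and 1953 lower; there the spread came from the siANP32B samples and the lone control was assumed to vary like them. With median-of-ratios scaling the other initiation factors and cofactors had 2 lower, the kinases and phosphatases 6 higher and 3 lower, and the mitochondrial factors 5 higher. In that scaling all genes split into 2690 higher and 2560 lower, against 2031 and 3437. EIF4EBP1 was called higher with siCtrl replicate 1 as the only control (0.24, adjusted p = 0.0389).

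Samples with the same replicate number did not deviate together (correlations of 0.021, -0.0063 and -0.0028 for numbers 1, 2 and 3). With 3 samples per group this cannot show that the numbers carry no pairing. With the number as a replicate block limma called 31 members higher and 11 lower, and 2006 and 3310 of all genes.

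EEF1AKMT4, not called on log2(FPKM + 1) at 0.55, was called higher by limma-voom on recovered fragments (0.99, adjusted p = 0.0464) and where siCtrl replicate 1 alone served as control (1.04, adjusted p = 0.0469). FPKM are relative levels, and the cause of the shifts between scalings was not tested. How copies and overlapping genes shared fragments was not tested. mRNA levels give no measure of protein or of translation.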

Other observations

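Names of translation factors also belong to pseudogenes, of which 18 had a mean of at least 1 FPKM, 7 of them copies of EEF1A1. EEF1A1P5 averaged 196 ± 6.06 FPKM in siANP32B cells and 160 ± 5.52 FPKM in siCtrl cells (SD, n = 3 each), with a log2 fold change of 0.29 (limma adjusted p = 0.000664), beside 0.29 for EEF1A1. EEF1A1P6 averaged 25.7 ± 3.12 FPKM in siANP32B cells and 21.0 ± 1.68 FPKM in siCtrl cells, with a log2 fold change of 0.28 (limma adjusted p = 0.0445). EIF4EP2, a copy of EIF4E, averaged 0.957 ± 0.445 FPKM in siANP32B cells and 1.59 ± 0.197 FPKM in siCtrl cells and was not called (limma adjusted p = 0.157). Whether fragments of these rows came from the pseudogenes or from their parent genes was not tested. Of the relatives below the limit, EEF1A2, the form of eEF1A known from muscle and neurons, read 0.0839, 0.346 and 0.424 FPKM in siANP32B cells, against 0.471, 0.432 and 0.498 FPKM in siCtrl cells.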
